A study of Mus musculus with 8 samples.

Results

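The squamous and basal epithelial genes described here were Sprr1a, Sprr1b, Sprr2a1 and Sprr2a2, which encode small proline-rich proteins, the keratin genes Krt4, Krt5, Krt13, Krt14 and Krt15, and Trp63, which encodes the transcription factor p63. They were 10 of the 23469 genes in the count table and were found by their Entrez identifiers. The list was chosen by gene family with results of these libraries in view, and Sprr2a1 and Sprr2a2 were selected on their low counts in PBS-treated DDAH1-transgenic mice. The comparison of the PBS-treated genotypes is therefore given for these genes as a description, with no test. Sprr2a1 and Sprr2a2 had the same count in each of the 8 libraries, so that the 10 genes gave 9 distinct measurements.

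Lung RNA came from C57BL/6 wild type (WT) mice and from DDAH1-transgenic (TG) mice, both bought from the same supplier. DDAH1, the transgene product, is an enzyme that breaks down asymmetric dimethylarginine, an inhibitor of nitric oxide synthases. Mice of each genotype received 100 µg of house dust mite extract (HDM), an allergen preparation, or PBS alone, each in a volume of 50 µl, into the trachea 3 times per week for 3 weeks, and lungs were taken after airway responsiveness to methacholine had been measured 24 h after the last dose. The 4 groups are WT PBS, WT HDM, TG PBS and TG HDM. Each group was a single RNA pool, made from the lungs of 4 mice, from which both of its libraries were prepared. Every SD below is thus a spread between 2 libraries of 1 pool, and neither the SD nor any p-value covers the variation between mice. The promoter and sequence of the transgene and the age and sex of the mice are not stated in the study's text.

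Stratified squamous epithelium is built on a basal layer that holds the stem cells. Basal cells express p63 and the keratin pair K5 and K14, and K15 marks many of them. Cells that leave this layer in moist, non-cornified epithelia such as the esophagus and oral mucosa switch to the pair K4 and K13. Small proline-rich proteins are joined by transglutaminases into the cornified envelope, a protein shell under the membrane of differentiated squamous cells. In the mouse airway, basal cells are found mainly in the trachea and the largest bronchi, and the genes of squamous differentiation are low in the undamaged lung. Sprr2a genes are also expressed in non-squamous epithelia, where they are induced by injury and by allergic or bacterial stimuli.

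The total counts were between 5694928 in TG HDM library 1 and 11929374 in WT PBS library 2, and the 45S ribosomal RNA precursor took between 8.58% and 21.8% of them. Levels are given as CPM, the counts scaled by TMM library sizes over all 8 libraries. A library at 0 counts allows up to 3 counts, or between 0.233 and 0.447 CPM, and this limit covers counting error only. The defining genes of lung were abundant in each library, with surfactant protein C (Sftpc) at a group mean of 6421 CPM or more. The mouse gene Ddah1 was 41.0 ± 9.39 CPM in WT PBS, 65.4 ± 16.6 in TG PBS, 43.9 ± 1.15 in WT HDM and 34.1 ± 0.947 in TG HDM. The TG HDM libraries lay below the WT HDM libraries, by a Ddah1 difference that was not past the threshold (log2 fold change -0.32, adjusted p = 0.637, edgeR quasi-likelihood test). Whether these counts hold reads of the transgene cannot be told, so they are no check of its expression or of the genotype labels. Xist, the RNA that coats the inactive X, ranged from 11.3 to 20.8 CPM after PBS and from 2051 to 3028 CPM after HDM, and the Y-linked Ddx3y had 2 or 3 counts in each HDM library and at least 58.7 CPM in each PBS library. HDM treatment and the sex that these genes mark cannot be told apart in any HDM against PBS comparison below.

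Sprr2a1 (Entrez 20755) and Sprr2a2 (Entrez 100303744) are neighbours on chromosome 3 of GRCm38, at 92215835 to 92222491 and 92250647 to 92257304. Their coding sequences are shown because they decide what the count can mean. In GENCODE M21 the 249 coding bases of both genes (chr3:92219092-92219340 and chr3:92253905-92254153, plus strand, stop codon not included, each within a single exon) were identical. A further copy, Sprr2a3 (chr3:92288588-92288836, plus strand), differed from them at 3 positions, printed in capitals. Sprr2a3 was not analysed here.

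Sprr2a1 and Sprr2a2 coding sequence: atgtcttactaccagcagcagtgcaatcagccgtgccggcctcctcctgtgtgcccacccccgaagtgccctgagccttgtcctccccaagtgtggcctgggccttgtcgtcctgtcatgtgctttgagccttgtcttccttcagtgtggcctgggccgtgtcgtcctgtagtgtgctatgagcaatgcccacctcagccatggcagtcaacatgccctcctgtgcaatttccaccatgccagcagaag
Sprr2a3 coding sequence: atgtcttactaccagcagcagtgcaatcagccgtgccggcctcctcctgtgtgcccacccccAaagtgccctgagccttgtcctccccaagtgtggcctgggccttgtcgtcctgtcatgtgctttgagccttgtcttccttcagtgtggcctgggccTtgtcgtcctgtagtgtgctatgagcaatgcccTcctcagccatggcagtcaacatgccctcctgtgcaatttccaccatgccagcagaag

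Every stretch of 50 bases, the read length, in the coding region of Sprr2a1 and of Sprr2a2 also occurred in the transcript of another gene, as did 96.3% and 96.5% of the stretches of their whole transcripts. These other genes were the second of the pair, Sprr2a3, Sprr2b and the predicted gene Gm37428. The value reported for Sprr2a1 is therefore 1 measurement of the Sprr2a copies together. The bases before the transcription start were also the same in both genes, with 0 differences over 250 bases of RefSeq sequence.

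Sprr2a1 had 290 and 352 counts in WT PBS, 319 and 378 in WT HDM, 4 and 6 in TG PBS, and 266 and 528 in TG HDM. In CPM these were 29.1 and 28.8, 28.5 and 38.0, 0.400 and 0.633, and 39.7 and 40.9. Both TG PBS libraries were far below the other 6 libraries, and those 6 lay within a range of 28.5 to 40.9 CPM. The mean was 28.9 ± 0.210 CPM in WT PBS against 0.517 ± 0.165 in TG PBS (SD, n = 2 libraries), a fitted log2 fold change of -5.79 (standard error, SE, 0.53) that the choice of the gene rests on. In whole lung RNA, fewer cells that express a gene and less RNA per cell cannot be told apart. Between TG HDM (40.3 ± 0.890 CPM) and TG PBS the log2 fold change was 6.28 (SE 0.52), and between WT HDM (33.3 ± 6.70 CPM) and WT PBS it was 0.20 (SE 0.29). These 2 differences use the PBS libraries on which the gene was selected and are given with no test.

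The comparison that shares no library with this choice is the one between the HDM-treated genotypes. There Sprr2a1 and Sprr2a2 had a log2 fold change of 0.32 (SE 0.31, adjusted p = 0.665, edgeR quasi-likelihood F test, adjusted by Benjamini-Hochberg over 15191 genes). Both TG HDM libraries were above both WT HDM libraries, by less than the spread that the test allows for.

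**Figure D1:**
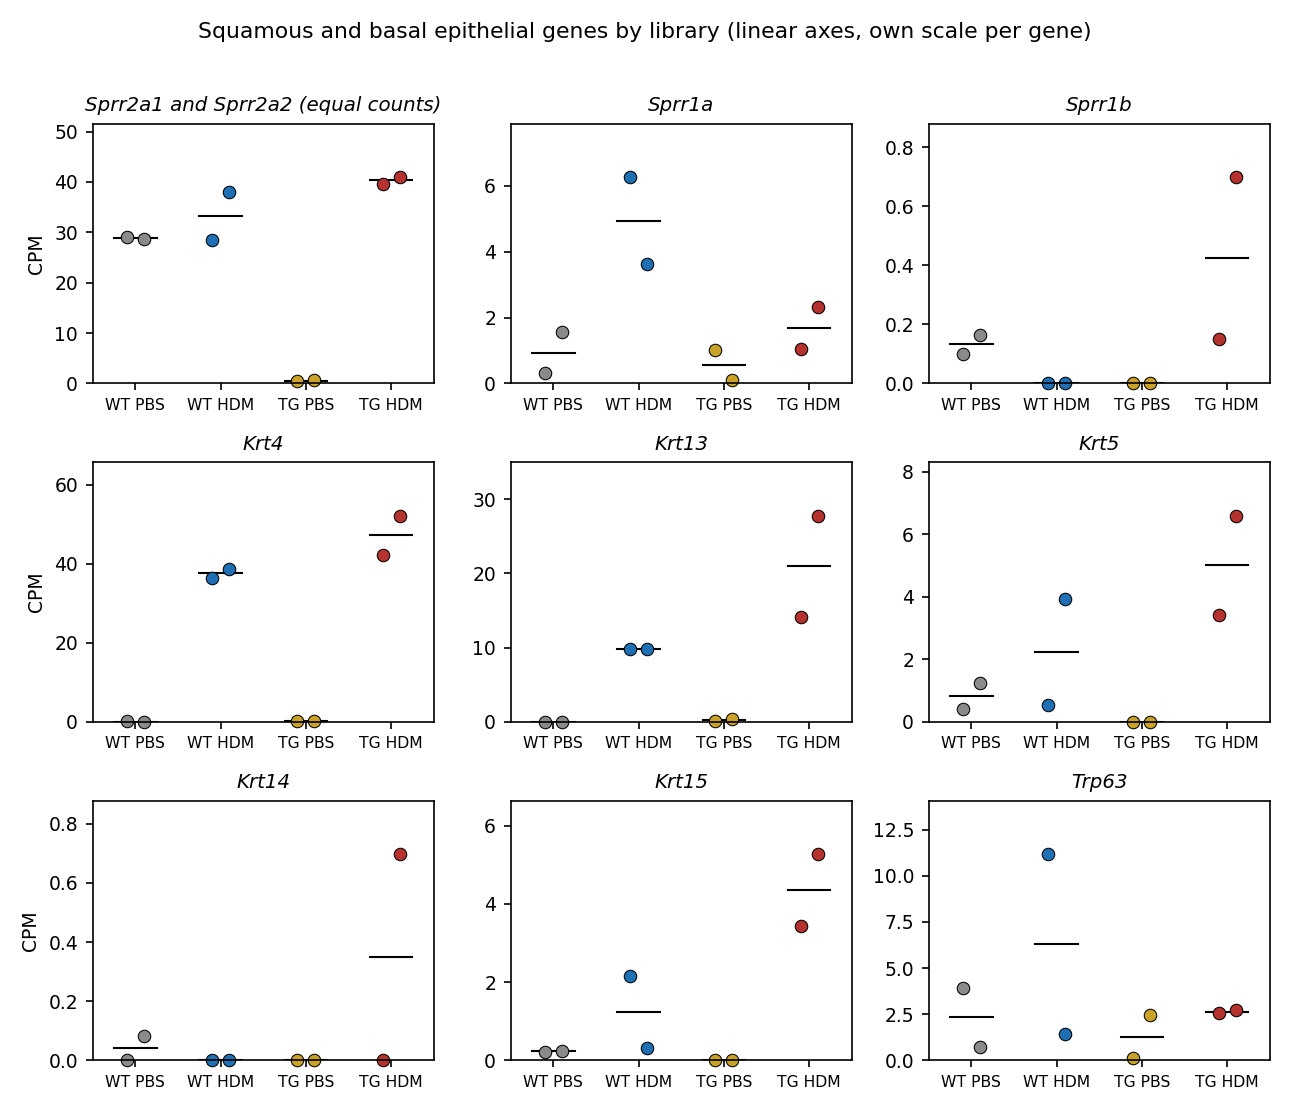
CPM (linear axis from 0, a scale of its own for each gene) of the 9 distinct measurements in the 4 groups, with a point for each of the 2 libraries and a line at their mean. Sprr2a is near 0 in TG PBS alone, at 0.400 and 0.633 CPM, while Krt4 and Krt13 are near 0 in both PBS groups and the Trp63 libraries of a pool differ by up to 24.2-fold.

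Sprr1a (Entrez 20753, chromosome 3, 92483954 to 92485881) and Sprr1b (Entrez 20754, chromosome 3, 92436808 to 92438817), precursors of the cornified envelope in squamous epithelia, shared no stretch of 50 bases with each other or with other genes, and their aligned coding bases differed at 70 of 432 positions. Sprr1a had 3 and 19 counts in WT PBS, 70 and 36 in WT HDM, 10 and 1 in TG PBS, and 7 and 30 in TG HDM. Both WT HDM libraries were above all other libraries, at 6.26 and 3.62 CPM against at most 2.33. The log2 fold change of HDM against PBS was 2.38 in WT mice (SE 0.95, adjusted p = 0.176) and 1.61 in TG mice (SE 1.39, adjusted p = 0.506, both by the edgeR quasi-likelihood test). For Sprr1a the WT value was 3.97 without WT PBS replicate 2 and 1.66 without WT PBS replicate 1, and the TG value was 3.86 without TG PBS replicate 1, 0.78 without TG PBS replicate 2 and 0.42 with an offset for transcript length. Between the HDM-treated genotypes it was -1.49 (SE 0.94, adjusted p = 0.473, same test), which was not past the threshold of 0.05, and Sprr1a was the 1 small proline-rich gene of the list whose mean was lower in TG HDM than in WT HDM.

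Sprr1b was at the limit of detection. It had 1 and 2 counts in WT PBS, 0 in both WT HDM and both TG PBS libraries, and 1 and 9 counts in TG HDM, and it did not pass the low-count filter in any comparison. The mean of TG HDM, 0.423 ± 0.388 CPM, was at least 1.49-fold higher than the limit of WT HDM and at least 1.37-fold higher than that of TG PBS, and 9 of its 10 counts came from 1 library.

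The bases before the start of Sprr2a1, Sprr1a and Krt13 are shown because these genes were at different levels in the same pools. The sequences are RefSeq promoters of GRCm38.p6 without any base that lies in a GENCODE M21 transcript of the gene, and positions are chr3:92215585-92215798 on the plus strand for Sprr2a1, chr3:92485896-92486131 on the minus strand for Sprr1a and chr11:100121567-100121816 on the minus strand for Krt13. Both strands were searched for the AP-1 motif TGANTCA and for a STAT6 motif, the letters TTC and GAA with 4 bases between them, and the capitals mark the matches. The octamer ATTTGCAT, the ETS letters ACCGGAAGT and the TATA letters TATAAA were searched as well. The windows of the members held 0 octamer and 0 ETS matches, and TATA letters stood at 1 place each before Sprr1a and Sprr1b.

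Sprr2a1 promoter: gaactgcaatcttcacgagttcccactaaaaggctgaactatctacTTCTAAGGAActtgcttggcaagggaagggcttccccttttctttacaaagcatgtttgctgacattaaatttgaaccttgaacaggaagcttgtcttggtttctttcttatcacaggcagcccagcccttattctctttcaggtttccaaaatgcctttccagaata
Sprr1a promoter: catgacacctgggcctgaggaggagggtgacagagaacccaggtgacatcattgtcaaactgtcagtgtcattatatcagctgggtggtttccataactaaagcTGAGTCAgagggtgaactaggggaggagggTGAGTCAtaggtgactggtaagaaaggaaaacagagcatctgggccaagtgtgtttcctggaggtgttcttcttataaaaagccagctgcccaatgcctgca
Krt13 promoter: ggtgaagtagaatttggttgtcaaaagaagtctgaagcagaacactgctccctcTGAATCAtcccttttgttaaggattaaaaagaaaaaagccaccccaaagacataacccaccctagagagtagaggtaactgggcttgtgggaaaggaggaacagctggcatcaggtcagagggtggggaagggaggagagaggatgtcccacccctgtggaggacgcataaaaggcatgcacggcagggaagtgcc

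AP-1 letters stood at 2 places in the 250 bases before Sprr1a and at 1 place each before Sprr1b and the outer start of Krt13, and at 2 places before a second RefSeq start inside Krt13. They were absent from these windows of Sprr2a1, Sprr2a2 and Krt5. They were also absent from the only window of Krt14, which lay before a RefSeq start inside that gene. The bases before the outer start of Krt14 were not searched. The STAT6 motif stood at 1 place before Sprr2a1 and, in the same sequence, before Sprr2a2, and in no searched window of the other members. Of 32851 promoter windows of the same length, 6.75% held TGANTCA and 5.85% held the STAT6 motif. Promoter sequences were matched for 7 of the 10 members, and a match of letters is a description of the sequence and not of binding.

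Krt4 (Entrez 16682, chromosome 15, 101918535 to 101924735) and Krt13 (Entrez 16663, chromosome 11, 100117327 to 100121566), the partners of the suprabasal keratin pair, rose with HDM in both genotypes. Krt4 had 1 and 0 counts in WT PBS and 1 count in each TG PBS library, against 407 and 385 counts in WT HDM and 283 and 673 in TG HDM. Its level went from 0.0501 to 37.6 ± 1.63 CPM in WT mice and from 0.103 to 47.2 ± 7.04 CPM in TG mice. Neither keratin shared a stretch of 50 bases with another gene, and no PBS library overlapped an HDM library for either of them.

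In WT mice Krt4 rose by 9.37 on the log2 scale (SE 0.68, adjusted p = 8.21e-07, edgeR quasi-likelihood test). As the PBS group held 1 count, the ratio of the summed counts per library size, 833 with an exact 95% counting interval from 149 to 32951, shows how far this value is fixed. The log2 value was 11.71 without WT PBS replicate 1, the library with that count, and 8.37 without WT PBS replicate 2. In TG mice Krt4 rose by 8.70 (SE 0.59, adjusted p = 4.01e-06, same test), with a ratio of 475 and an interval from 131 to 3925.

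Krt13 was at 0 in both WT PBS libraries and had 1 and 3 counts in TG PBS. It had 109 and 98 counts in WT HDM, 9.80 ± 0.0729 CPM, and 95 and 358 counts in TG HDM, 21.0 ± 9.60 CPM. HDM-treated WT mice were at least 35.9-fold higher than the limit of 3 counts in the PBS libraries (adjusted p = 0.000380, edgeR quasi-likelihood test). In TG mice Krt13 rose by 6.60 on the log2 scale (SE 0.78, adjusted p = 0.000255, same test), or 97.2-fold, and by 7.56 without TG PBS replicate 2, 6.00 without TG PBS replicate 1 and 5.93 with an offset for transcript length.

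Between the HDM-treated genotypes, Krt4 had a log2 fold change of 0.37 (SE 0.29, adjusted p = 0.572) and Krt13 one of 1.14 (SE 0.46, adjusted p = 0.247, edgeR quasi-likelihood test). Both TG HDM libraries were above both WT HDM libraries for each of the pair, with 42.2 and 52.2 against 36.4 and 38.7 CPM for Krt4 and 14.2 and 27.8 against 9.75 and 9.86 CPM for Krt13. The unadjusted p-value of Krt13 was 0.0308, and neither keratin was past the threshold.

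**Figure D2:**
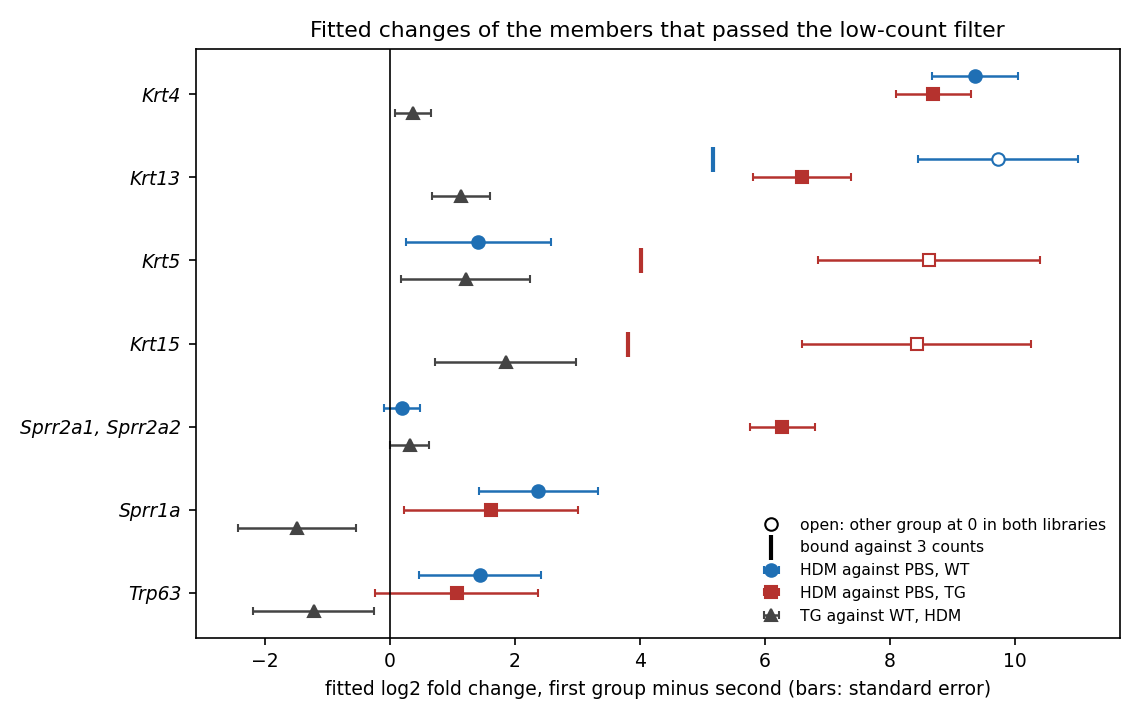
Fitted log2 fold change (horizontal axis, bars are the standard error) of the members that passed the low-count filter, for HDM against PBS in WT mice (circles), HDM against PBS in TG mice (squares) and TG against WT after HDM (triangles), with open symbols where the other group was at 0 and a vertical mark at the bound against 3 counts. Krt4 and Krt13 stand to the right in both genotypes, Krt5, Krt15 and Sprr2a in TG mice, and the values between the HDM-treated genotypes lie between -1.49 and 1.85.

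Krt5 (Entrez 110308, chromosome 15, 101707069 to 101712905), the type II keratin of basal cells, had 4 and 15 counts in WT PBS, 6 and 39 in WT HDM, 0 in both TG PBS libraries, and 23 and 85 in TG HDM. The WT HDM libraries, at 0.537 and 3.92 CPM, enclosed the WT PBS libraries at 0.401 and 1.23 CPM. In WT mice the log2 fold change was 1.42 (SE 1.16, adjusted p = 0.562, edgeR quasi-likelihood test), and it turned to -0.62 without WT HDM replicate 2. In TG mice Krt5 was at least 16.2-fold higher after HDM, at 5.01 ± 2.23 CPM against the limit of the PBS libraries (adjusted p = 0.00901, same test). Of its stretches of 50 bases, 12.2% also occurred in other genes, among them Krt6a and Krt6b, so that some of its reads could have been counted elsewhere.

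Krt15 (Entrez 16665, chromosome 11, 100131759 to 100135949), a type I keratin of basal cells, followed the same order of groups. It had 2 and 3 counts in WT PBS, 24 and 3 in WT HDM, 0 in both TG PBS libraries, and 23 and 68 in TG HDM. TG HDM, at 4.35 ± 1.30 CPM, was at least 14.1-fold higher than the limit of TG PBS (adjusted p = 0.0120, edgeR quasi-likelihood test). In WT mice it did not pass the filter, and the ratio of the summed counts was 5.68 with a counting interval from 2.16 to 18.9. With TG PBS replicate 1 left out the adjusted p-value in TG mice was 0.0858 for Krt5 and 0.102 for Krt15, and with TG PBS replicate 2 left out it was 0.0979 and 0.117.

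Krt14 (Entrez 16664, chromosome 11, 100203162 to 100207510), the usual partner of Krt5 in basal cells, was not detectable at this depth in most libraries. It had 1 count in WT PBS library 2, 9 counts in TG HDM library 2 and 0 counts in the other 6 libraries. It passed the filter in no comparison. Of its stretches of 50 bases, 14.4% also occurred in Krt16 or Krt17, which had no count outside TG HDM library 2. All 9 of these Krt14 counts, and 9 of the 13 Sprr1b counts of the series, were in that library.

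Trp63 (Entrez 22061, chromosome 16, 25683763 to 25892088), whose product keeps basal cells in their state, had 39 and 9 counts in WT PBS, 125 and 14 in WT HDM, 1 and 23 in TG PBS, and 17 and 35 in TG HDM. The libraries of 1 pool differed by up to 24.2-fold in CPM, with 0.100 and 2.43 CPM in TG PBS. WT HDM held both the highest library, at 11.2 CPM, and one at 1.41 CPM. The log2 fold change of HDM against PBS was 1.45 in WT mice (SE 0.98, adjusted p = 0.459) and 1.07 in TG mice (SE 1.31, adjusted p = 0.659, both by the edgeR quasi-likelihood test). The first was -0.71 without WT HDM replicate 1 and 2.26, with an adjusted p of 0.0293, without WT HDM replicate 2, so that its direction rested on the first of these libraries and the absence of a call on the second. After HDM the genotypes differed by -1.22 (SE 0.97, adjusted p = 0.584, same test), which became 0.91 without WT HDM replicate 1.

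After HDM in WT mice, 2 of the 7 members that passed the low-count filter were higher and 0 lower at an adjusted p-value under 0.05, where 4.44% of the 15123 genes tested were called higher and 2.3% lower. The 2 genes were Krt4 and Krt13. In TG mice 6 of 8 members were called higher and 0 lower, where 8.43% of 15086 genes were called higher and 5.35% lower. Krt4 and Krt13 in both genotypes, and Krt5 and Krt15 in TG mice, passed the filter only through the HDM libraries in which they are high, so that they could not have been called lower, and nothing is read from these counts against the shares over all genes. The 6 were Krt4, Krt13, Krt5, Krt15 and the Sprr2a pair, which counts as 2 genes with 1 measurement and was selected on libraries of this comparison. With either TG PBS library left out, 4 of the members were called. With an offset for transcript length the members called were 2 and 6 as well, while the calls over all genes went from 1272 higher and 807 lower to 524 and 1114 in TG mice.

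Between the HDM-treated genotypes 0 of the 8 members that passed the filter were called by the edgeR quasi-likelihood test, and 1, Krt13, had an unadjusted p-value under 0.05. DESeq2 called 0 of the 4 members to which it gave an adjusted p-value, Krt4, Krt13 and the Sprr2a pair, and gave none for the other 4. Of 15191 genes tested by edgeR, 1.84% were called higher in TG HDM and 0.599% lower, that is 279 and 91 genes, against 33 and 53 with the length offset. Between the PBS-treated genotypes only the Sprr2a pair and Trp63 passed the filter, with 0 called higher and 2 called lower, where 0.281% of 14926 genes were called higher and 0.375% lower, that is 42 and 56 genes, against 133 and 44 with the length offset. The 2 are the genes on which the list was selected, and nothing is read from this count. Trp63 had a fitted log2 fold change of -0.89 (SE 1.18) there, from overlapping libraries. Krt5 was at least 2.64-fold lower in TG PBS than in WT PBS by the limit of 3 counts, and for Krt13, Krt14, Krt15 and Sprr1b both PBS groups were at or under that limit.

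The difference between the HDM effects of TG and WT mice was fitted on all 8 libraries. It was 6.06 on the log2 scale (SE 0.56) for Sprr2a1 and Sprr2a2, which is given with no test because it rests on the TG PBS libraries. It was 7.28 (SE 2.46, adjusted p = 0.162) for Krt5 and 6.10 (SE 2.65, adjusted p = 0.295) for Krt15 by the edgeR quasi-likelihood test, and these fitted values depend on TG PBS libraries at 0. For Krt13 the difference was -3.07 (SE 1.69, adjusted p = 0.427), a fitted value that depends on WT PBS libraries at 0, and for Krt4 it was -0.67 (SE 1.25, adjusted p = 0.882, same test). The call of Krt5 and Krt15 in TG mice and not in WT mice was thus not a difference past the threshold. Beside the Sprr2a pair, 0 of the 6 members in this fit were called by edgeR or by DESeq2, and 2 of them, Krt5 and Krt15, had an unadjusted p-value under 0.05. Over all genes, 1.05% of 15868 were called higher and 0.706% lower, that is 167 and 112 genes, against 66 and 297 with the length offset.

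The order of the genes within a group depended on the length used. Divided by the length of the transcript, the mean level in WT HDM was 17.6 CPM per kb for Krt4, 11.1 for Sprr2a1, 6.13 for Sprr1a, 5.93 for Krt13, 1.34 for Trp63 and 1.01 for Krt5. Divided by the coding length, the part in which reads were counted, it was 134 CPM per kb for Sprr2a1 and 23.9 for Krt4, because 249 of the 3003 transcript bases of Sprr2a1 are coding. In TG HDM the suprabasal pair stood at 22.1 and 12.7 CPM per kb of transcript and the basal keratins Krt5, Krt15 and Krt14 at 2.28, 2.56 and 0.205. On this scale Krt5 and Krt15 did not differ beyond the spread of their libraries, while Krt4 was above both.

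Across groups, Krt4 and Krt13 had the order TG HDM, WT HDM, TG PBS, WT PBS by their means, where both HDM groups stood apart from both PBS groups. The TG HDM libraries did not overlap the WT HDM libraries for either gene, and that difference was not past the threshold. Krt5 and Krt15 had the order TG HDM, WT HDM, WT PBS, TG PBS, in which only TG HDM against TG PBS passed the test. Krt15 did not pass the filter in WT mice. For Krt4, Krt13 and Krt15 every PBS library had at most 3 counts, so the order of their PBS groups is not resolved. The means of Sprr2a stood in the order TG HDM, WT HDM, WT PBS, TG PBS, with the first 3 groups between 28.9 and 40.3 CPM. Its place in TG PBS is the one it was selected on.

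The libraries of a pool agreed closely for some members and not for others. For Sprr2a1 the ratio of the higher to the lower library was 1.01 in WT PBS, 1.33 in WT HDM and 1.03 in TG HDM. For Krt4 it was 1.06 in WT HDM and 1.24 in TG HDM, and for Krt13 1.01 and 1.96. Trp63 had ratios of 5.31 in WT PBS, 7.94 in WT HDM and 24.2 in TG PBS, and their exact 95% counting intervals all lay above 1, with lower ends at 2.53, 4.56 and 3.94. Among the genes whose summed count in WT HDM was within a factor of 2 of that of Trp63, 2.09% had a ratio at least as large, and 9.83% and 9.12% did in WT PBS and TG PBS. Krt5 (7.31) and Krt15 (7.12) had large ratios in WT HDM, in opposite directions, and 12.4% and 21.5% of genes of similar count had ratios as large.

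**Figure D3:**
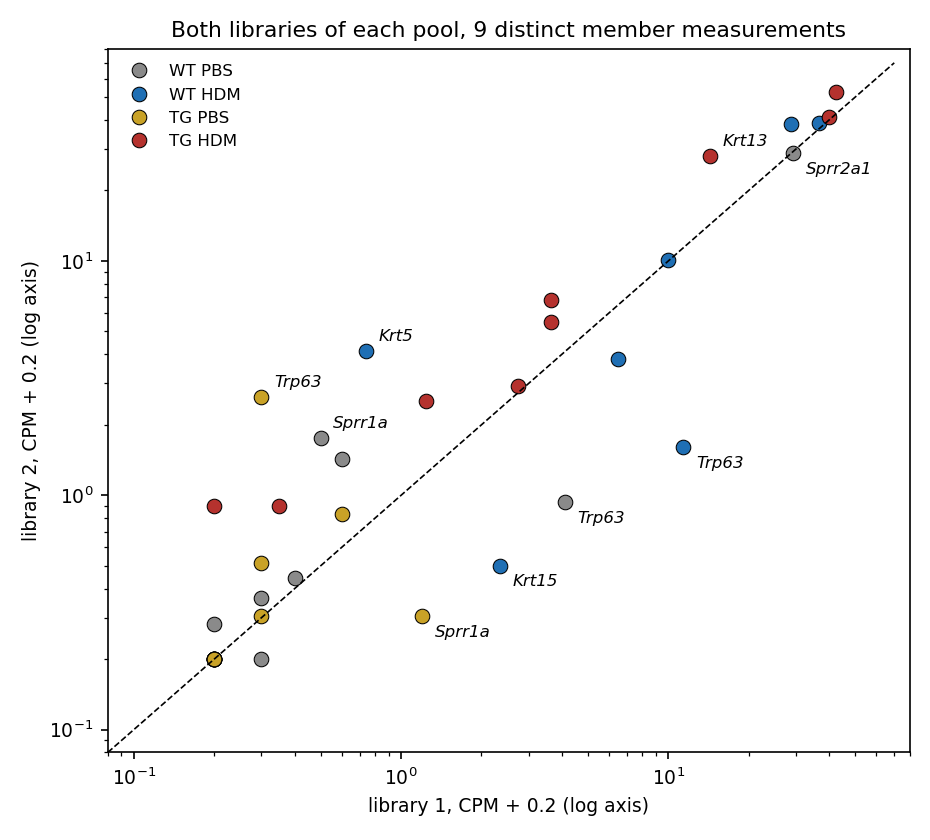
CPM + 0.2 of library 1 (horizontal, log axis) against library 2 (vertical, log axis) of each pool for the 9 distinct measurements, coloured by group, with a dashed line where both are equal. Sprr2a lies on the line in WT PBS, and Trp63 lies far from it in 3 of the 4 pools.

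The other small proline-rich genes were mostly silent. Of 11 with a row in the table, 9 or 10 were at 0 in both libraries of a given group, and Sprr3 and Sprr2b were the ones with counts. Sprr3, a component of non-cornified squamous epithelium, had 0 counts in WT PBS, 40 and 16 in WT HDM, 3 and 0 in TG PBS, and 11 and 62 in TG HDM. It was at least 9.51-fold higher after HDM in WT mice (adjusted p = 0.0215, edgeR quasi-likelihood test) and had a log2 fold change of 4.32 in TG mice (SE 1.52, adjusted p = 0.0830, same test). In both genotypes Sprr3 passed the filter only through the HDM libraries, so that it could not have been called lower. Sprr2b, which shares stretches of sequence with Sprr2a1, had 11 and 16 counts in WT PBS, 12 and 15 in WT HDM, 0 in both TG PBS libraries and 5 and 24 in TG HDM.

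The list of cornified envelope and terminal squamous differentiation genes had 30 genes with a row. After HDM, 5 of the 18 that passed the filter in WT mice were called higher and 0 lower, and in TG mice 9 of 19 were called higher and 1 lower by the edgeR quasi-likelihood test, beside 4.44% and 2.3% of all genes in WT and 8.43% and 5.35% in TG mice. The median log2 fold change was 0.72 in WT and 1.97 in TG mice, beside 0.02 and 0.03 over all genes tested, and was the same with genes at 0 in PBS set to their bound. Some of these genes, among them Cnfn and Tgm3 in WT mice and Krtdap, Lor and Gsdma in TG mice, passed the filter only through the HDM libraries. They could not have been called lower, so nothing is read from these counts and medians against the values over all genes. Krtdap, expressed in differentiating keratinocytes, had 0 and 19 counts in WT PBS, 154 and 134 in WT HDM, 0 in both TG PBS libraries, and 127 and 194 in TG HDM. It rose by 4.06 on the log2 scale in WT mice (SE 0.93, adjusted p = 0.0166) and was at least 55.1-fold higher after HDM in TG mice (adjusted p = 0.000234, same test).

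Cnfn, which encodes the envelope protein cornifelin, had 0 counts in WT PBS, 48 and 95 in WT HDM, 0 and 1 in TG PBS, and 33 and 67 in TG HDM, and was at least 25.4-fold higher after HDM in WT mice (adjusted p = 0.00199, edgeR quasi-likelihood test). Tgm3, an epidermal transglutaminase that joins envelope proteins, had 1 and 0 counts in WT PBS and 270 and 46 in WT HDM, a log2 fold change of 7.98 (SE 1.18, adjusted p = 0.000704) and a count ratio of 332 with an interval from 59.2 to 13172. It had 1 count in each TG PBS library and 53 and 75 in TG HDM. Lor, which encodes loricrin, the main envelope protein of cornified skin, had 1 and 0 counts in TG PBS and 50 and 122 in TG HDM, a log2 fold change of 7.07 (SE 1.22, adjusted p = 0.00282) and a count ratio of 171 with an interval from 30.2 to 6784. It had 4 and 13 counts in WT PBS and 31 and 20 in WT HDM. Gsdma, a gasdermin of upper squamous layers, was at least 7.29-fold higher after HDM in TG mice (adjusted p = 0.0371), while Ppl, which encodes the desmosomal linker periplakin, fell by 1.10 on the log2 scale (SE 0.30, adjusted p = 0.0322). Gsdma had 0 and 1 counts in WT PBS and 10 and 1 in WT HDM. Some listed genes went the other way. Evpl had 114 and 71 counts in TG PBS and 19 and 61 in TG HDM. Tchh had 23 and 33 counts in WT PBS and 6 and 8 in WT HDM.

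Between genotypes 1 gene of this list was called after HDM and 1 after PBS. Over all genes, 1.84% were called higher and 0.599% lower after HDM, and 0.281% and 0.375% after PBS. After HDM, Cstb, which encodes the protease inhibitor cystatin B, was the 1 gene of 21 past the threshold, with 202 and 218 CPM in TG HDM against 103 and 101 in WT HDM, a log2 fold change of 1.08 (SE 0.20, adjusted p = 0.0140, edgeR quasi-likelihood test). In PBS-treated mice Il1rn, the interleukin-1 receptor antagonist gene, was the 1 gene of 13, with 24.0 and 42.3 CPM in TG PBS against 102 and 95.5 in WT PBS, a log2 fold change of -1.59 (SE 0.25, adjusted p = 0.00263). For both genes the difference between the HDM effects was past the threshold as well, at 1.49 for Cstb (SE 0.28, adjusted p = 0.00710) and 1.62 for Il1rn (SE 0.39, adjusted p = 0.0378, same test). For this difference 1.05% of all genes were called higher and 0.706% lower. For Cstb and Il1rn no value under the alternative settings is given here. Over all genes, those called higher in TG HDM than in WT HDM went from 279 to 33 with an offset for transcript length. The list was chosen with earlier results of these data known, and the paper lists Il1rn as lower in PBS-treated DDAH1-transgenic mice.

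The adhesion and basement membrane genes of basal epithelium were called in both directions after HDM. Of 22 genes with a row, 1 of 19 tested was higher and 2 lower after HDM in WT mice, where 4.44% and 2.3% of all genes were called, and 2 of 20 were higher and 5 lower in TG mice, where 8.43% and 5.35% were. The counts of higher genes are near those shares and the counts of lower genes are above them, with no set test. The list was chosen with earlier results of these data known, so nothing is read from these counts about the list as a class. Jup, Dst and Itga6 had means of 306, 402 and 129 CPM in WT PBS, where Krt5 had 0.813. Which cells these values came from was not tested. Pkp1 passed the filter in TG mice only through the HDM libraries and could not have been called lower there. The median log2 fold changes were -0.26 and -0.39. In WT mice Cd44 rose by 0.88 (SE 0.13, adjusted p = 0.000650), while Itga6, an integrin chain of hemidesmosomes, fell by 0.75 (SE 0.19, adjusted p = 0.0295) and Dst, which encodes dystonin, fell by 0.44 (SE 0.12, adjusted p = 0.0480, edgeR quasi-likelihood test). In TG mice Pkp1, which encodes the desmosomal plakophilin of suprabasal cells, was at least 9.63-fold higher (adjusted p = 0.0243) and Cd44, a receptor for hyaluronan also present on leukocytes, rose by 0.80 (SE 0.21, adjusted p = 0.0256, edgeR quasi-likelihood test). Dsg3, a desmosomal cadherin of basal layers, fell by 2.58 (SE 0.70, adjusted p = 0.0299), Jup, which encodes plakoglobin, by 1.23 (SE 0.20, adjusted p = 0.00223) and Lama3, a laminin chain of the epithelial basement membrane, by 1.21 (SE 0.21, adjusted p = 0.00329, same test).

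The keratins of wounded epithelium, Krt6a, Krt6b, Krt16, Krt17 and Krt75, passed the filter in no comparison and were at 0 in both TG PBS libraries. Of the keratins of simple epithelium 0 of 6 tested genes were called in any of the 5 comparisons, with at most 2 at an unadjusted p-value under 0.05 in a comparison, and Krt18, one of the most abundant among them, had log2 fold changes between -0.23 and 0.29. Krt7, the other abundant one, had 62.7 and 78.8 CPM in TG PBS against 30.7 and 37.1 in WT PBS, with no overlap, a log2 fold change of 1.05 (SE 0.24, adjusted p = 0.0529, edgeR quasi-likelihood test) that fell just short of the threshold. Their summed level was between 163 and 265 CPM in all libraries. Of 14 genes of airway secretory and ciliated epithelium, 3 were called higher and 5 lower after HDM in WT mice, where 4.44% and 2.3% of all genes were, and 6 higher and 3 lower in TG mice, where 8.43% and 5.35% were. Of 12 alveolar genes 2 were called higher and 3 lower in WT mice, beside the same 4.44% and 2.3% of all genes. In TG mice 1 was called higher, near the share of 8.43%, and 3 lower, beside 5.35% of all genes.

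Markers of tissues next to the lung also differed between groups. The summed level of 11 skeletal muscle genes was 43.1 to 46.7 CPM in WT PBS, 218 to 226 in WT HDM, 269 to 295 in TG PBS and 134 to 153 in TG HDM, where that of the members was 61.5 to 63.1, 123 to 134, 2.10 to 4.22 and 146 to 180, with Sprr2a counted under both genes. For 13 thymocyte genes it was 188 to 201 CPM in WT PBS, 118 to 135 in WT HDM, 67.1 to 77.7 in TG PBS and 111 to 116 in TG HDM. The recombination gene Rag1 had 189 and 371 counts in WT PBS and at most 7 in each of the other 6 libraries, and 3 of 13 thymocyte genes were called lower in TG PBS than in WT PBS, where 0.375% of all genes were. In the same comparison 5 of 10 neutrophil genes were called lower (median -2.36 on the log2 scale), and 8 of 10 skeletal muscle genes higher, where 0.281% of all genes were. These lists were chosen with earlier results of these data known, and the paper names many of the genes called here for the same comparison. Nothing is therefore read from these counts against the shares over all genes. For 10 neutrophil genes the level was 493 to 510 CPM in WT PBS, 241 to 254 in WT HDM, 195 to 218 in TG PBS and 269 to 276 in TG HDM, and for 8 adipose tissue genes it was 68.8 to 81.5, 31.5 to 36.5, 23.2 to 31.4 and 19.1 to 75.6. The thymocyte and neutrophil sums were lowest in TG PBS, as was Sprr2a, and the part of these cells in the values of Sprr2a was not tested.

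Thymic epithelium also expresses K5, K14 and p63. Its defining gene Foxn1 had 1 count in TG HDM library 2 and 0 in the other 7 libraries, and Aire had 7 counts in WT PBS library 1 and 0 elsewhere. Ccl25 had 39 and 44 counts in WT PBS, 1 and 5 in WT HDM, 3 and 4 in TG PBS, and 16 and 11 in TG HDM. Tbata had 32 and 65, 0 and 0, 10 and 9, and 1 and 16 counts in the same order. For Prss16 these were 18 and 12, 0 and 2, 0 and 0, and 0 and 3. By their means Ly75 was highest in WT HDM and Cldn3 in TG HDM. The summed level of the 11 genes of that list was 471 to 510 CPM in WT PBS, 327 to 399 in WT HDM, 408 to 449 in TG PBS and 257 to 300 in TG HDM, of which Psmb11 made up 169 CPM or more in each library. Of 8 or fewer tested genes, 0 were called higher in any of the 5 comparisons. Between the PBS-treated genotypes 0 of 8 were called and their median log2 fold change was -1.33. By the edgeR quasi-likelihood test 4 of these 8 had an unadjusted p-value under 0.05. 1 gene of the list was called lower after HDM in each genotype. The part of this tissue in the values of the basal keratins was not tested.

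**Figure D4:**
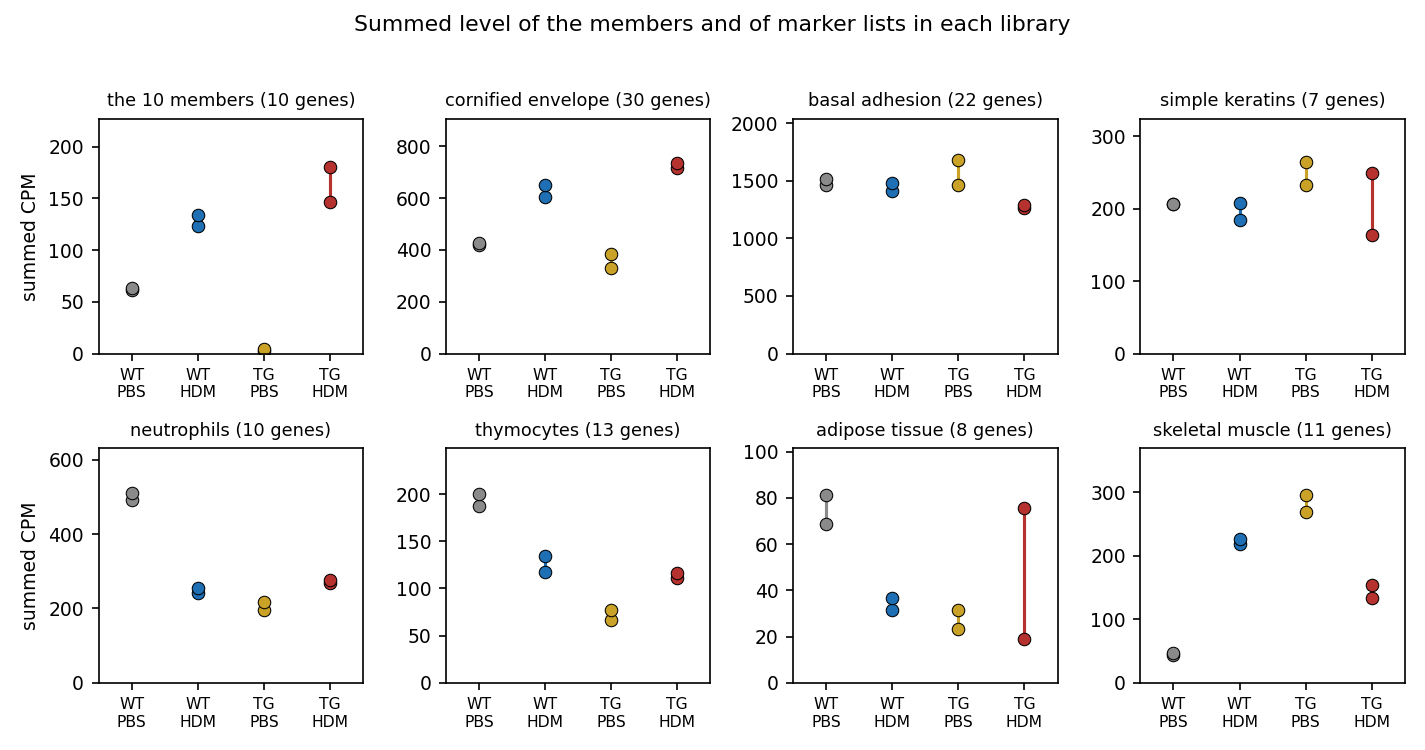
Summed CPM (linear axis from 0) of the members and of 7 marker lists in each library, with the 2 libraries of a group joined by a line. The sum of the members is lowest in TG PBS and highest in TG HDM. This sum counts the Sprr2a measurement under both genes, and the low Sprr2a value in TG PBS is the one these genes were selected on. The neutrophil and thymocyte lists are highest in WT PBS, and the skeletal muscle list is lowest in WT PBS.

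Over the 8 libraries, the genes whose log2 CPM were most like those of Sprr2a1 were Zbtb1 (Pearson's r 0.992), Saa3 (0.991), Ccl3 (0.983), Ccl4 (0.982) and Pkdcc (0.981), among 15676 genes with at least 50 counts in all. Saa3 encodes an acute phase protein and Ccl3 and Ccl4 encode chemokines. Saa3 had 838 and 1164 counts in WT PBS, 1415 and 1359 in WT HDM, 21 and 25 in TG PBS, and 1102 and 3609 in TG HDM. For Sprr1a the most similar genes were Tnfrsf26 (0.974), Wdr91 (0.974), Lmnb1 (0.972), Pbk (0.963) and Kif20a (0.958), and for Krt5 they were Mpv17l2 (0.985), Lockd (0.978), Mif (0.977), Cerk (0.973) and Slc5a9 (0.970). Between the members themselves, r was 0.987 for Krt4 and Krt13, 0.745 for Krt5 and Krt15, 0.832 for Krt5 and Sprr2a1, and 0.0906 for Sprr1a and Sprr1b. All of these values are descriptions over 8 points that share libraries, pools and depth. Those of Sprr2a1 rest mainly on the TG PBS libraries on which it was selected. The paper also lists Saa3, Ccl3 and Ccl4 as lower in PBS-treated DDAH1-transgenic mice, so nothing further is read from this likeness.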

How the data were processed

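RNA from 8 mouse lung libraries, 2 of each pool of 4 mice, was amplified and sequenced as single 50-base reads. The authors aligned these to mm10 with TopHat and deposited raw counts of reads that fell in each gene's coding region. The submitters' processing notes also list bcl2fastq, CASAVA 1.8 and DESeq. Of 23469 genes, 23372 were given a RefSeq symbol.

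From these counts, each comparison was fitted on its own 4 libraries, and the difference of HDM effects on all 8, with edgeR 4.0.16 in R 4.3.3 (TMM, filterByExpr with a minimum count of 10, quasi-likelihood F test). P-values are two-sided, were adjusted by Benjamini-Hochberg over all genes tested, and were called under 0.05. Groups came from the sample labels. Total counts were 5694928 to 11929374. A group at 0 was set to 3 counts per library for bounds, and count ratios carry exact 95% intervals, both of which cover counting error only. The libraries of a pool differed by more than sampling noise and were counted separately.

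The members and gene lists were chosen with earlier results of these data known. All members are named. The rule for list genes took, per comparison, the 3 past the threshold with the largest change in each direction whose groups did not overlap, or the 2 most abundant where none passed. It was followed in the text for the squamous, basal and keratin lists only, the airway, alveolar and other cell type lists being given by counts and sums. Foxn1, Aire, Psmb11 and the other named genes of thymic epithelium were named outside the rule, after their values were seen. Alternatives were DESeq2 1.42.0, RLE scaling, no filter, the replicate number as a block, all 8 libraries in a fit, library sizes that leave out rRNA and haemoglobin, a transcript length offset, and each library left out. The procedures were tested on simulated data. Transcript lengths and shared 50-base stretches were computed from GENCODE M21.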

Additional observations from a re-analysis of the deposited data

Results flagged for a closer look

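The difference between the HDM effects of TG and WT mice was 6.06 on the log2 scale for Sprr2a1 and 6.06 for Sprr2a2, 1 measurement under both names. It is listed because the values of the genotypes differ in their response to HDM. It rests on the TG PBS libraries through which these genes were selected, and is given as a value with no test.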

How the results depend on the processing

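Under the alternatives that kept all libraries, no member call was gained, lost or turned, among members with an adjusted p-value. Of all alternative values, 415 kept their direction and side of the threshold, 4 lost the call, 1 gained it and 12 turned. The calls that were lost, of Krt5 and Krt15 in TG mice, are given with the results, as is the gain for Trp63. For the genotypes after PBS, Trp63 became 0.76 without WT PBS replicate 1 and 0.07 without TG PBS replicate 1, and after HDM 0.91 without WT HDM replicate 1. For HDM in WT mice, Trp63 became -0.71 without WT HDM replicate 1, and Krt5 -0.62 and both Sprr2a1 and Sprr2a2 -0.036 without WT HDM replicate 2. The difference of HDM effects became 0.31 for Krt4 and 0.38 for Trp63 without WT PBS replicate 2, 1.77 for Trp63 without WT HDM replicate 1, 3.13 for Trp63 without TG PBS replicate 2 and 1.49 for Sprr1a without TG PBS replicate 1. The cause was not tested. With a library left out, these values went as far the other way as -4.38 and -2.04 for Trp63 between genotypes after PBS and HDM, 0.39 for Sprr2a1 and Sprr2a2, 2.42 for Krt5 and 3.08 for Trp63 for HDM in WT mice, and -2.38 for Sprr1a, -2.92 for Krt4 and -2.03 for Trp63 for the difference of HDM effects. The counts of called members with a library left out ranged from 2 to 3 for HDM in WT mice and from 4 to 6 in TG mice.

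Counts over all genes depended more on the setting. Between the PBS-treated genotypes 42 genes were higher and 56 lower, against 103 and 119 by DESeq2, 137 and 169 without the filter, 133 and 44 with the length offset, and 209 and 55 with offset and block. After HDM 279 were higher and 91 lower, against 580 and 329 by DESeq2, 710 and 345 without the filter, 33 and 53 with the length offset, 114 and 111 with offset and block, and 440 and 331 with all 8 libraries. For HDM in WT mice 672 were higher and 348 lower, against 529 lower by DESeq2, 1009 and 579 without the filter, 749 and 593 with offset and block and 230 lower with all 8 libraries. For HDM in TG mice 1272 were higher and 807 lower, against 524 and 1114 with the offset, 444 and 1009 with offset and block and 1282 lower with all 8 libraries. For the difference of HDM effects 167 were higher and 112 lower, against 371 and 317 by DESeq2, 376 and 299 without the filter, 66 and 297 with the offset and 72 and 384 with offset and block.

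With a library left out, these counts ranged from 32 to 246 higher and 42 to 186 lower between the PBS-treated genotypes, from 447 to 986 and 205 to 675 for HDM in WT mice, and from 94 to 337 and 42 to 384 for the difference of HDM effects. After HDM the genotype counts were 2 and 4 without WT HDM replicate 1, 17 and 3 without WT HDM replicate 2, and 924 and 671 without TG HDM replicate 2. For HDM in TG mice they were 313 and 91 without TG PBS replicate 1 and 233 and 44 without TG PBS replicate 2, so that the shares over all genes hold for the full set of libraries only.

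The replicate numbers did not pair the libraries, since the correlation of same-numbered deviations was between -0.0032 and 0.0097 over 11887 genes. With the replicate number as a block, 24 genes were higher and 21 lower between the PBS-treated genotypes and 436 and 189 after HDM, and no member call changed.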
